A study of Saccharomyces cerevisiae with 2 samples.

Results

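The genes described here encode the proteins of the cytoplasmic ribosome of Saccharomyces cerevisiae. They were taken by symbol, as every mRNA feature named RPL or RPS with a number and an optional A or B, together with RPP0, RPP1A, RPP1B, RPP2A and RPP2B of the ribosomal stalk. This gave 137 of the 6420 features in the deposited table, of which 5995 are mRNAs. Of these genes, 81 belong to the large (60S) and 56 to the small (40S) subunit, and 118 form 59 pairs of an A and a B copy, whereas 19 have no second copy. RNA-seq was performed on cdc55Δ cells and on WT cells. Both share the BY4741 background, which is haploid and of mating type a, and cdc55Δ lacks Cdc55p, a regulatory subunit of protein phosphatase 2A. Each strain stood unshaken at 30 °C in YPD20, a rich medium with a high glucose concentration, was collected after 6 h, and gave 1 library.

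Ribosomal proteins are needed in equal numbers, because each ribosome holds a single copy of nearly every protein. Most yeast ribosomal protein genes were retained as duplicates after an ancient duplication of the whole genome, and many still carry introns in a genome where introns are rare. Transcription of these genes follows growth and nutrient signals through Rap1, Fhl1, Ifh1 and Sfp1. Their mRNAs are among the most abundant in growing cells.

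The counts summed to 30133454 in the cdc55Δ library and to 33233285 in the WT library. CDC55 itself had 1 count in cdc55Δ and 2614 in WT. The mating type a genes MFA1 and STE2 had 545 and 16145 counts in cdc55Δ, against 1549 and 24905 in WT, whereas the alpha genes MF(ALPHA)1 and STE3 had 7 and 62 counts in cdc55Δ, against 15 and 82 in WT. Counts of the marker genes of BY4741 were 0 to 2 for LEU2, MET17 and URA3 in either library, and 1275 in cdc55Δ against 1624 in WT for HIS3. The sources used here do not state how much of HIS3 is missing in this strain. Because each strain has 1 library, no difference below has a replicate check or a p-value, and each comparison is one of these libraries. Intervals are 95% intervals of the reads and cover counting error only. In RNA from whole cultures, less mRNA per cell and fewer cells with that mRNA cannot be told apart. Log2 fold changes compare cdc55Δ with WT, positive where cdc55Δ was higher, on the scale of edgeR's TMM normalization and with a prior count of 0.5. Levels are the authors' RPKM, in which counts are divided by the listed length and by the sum of the library.

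The sequences of 3 pairs are shown first, because the A and B copies of the first 2 moved apart most among the small-subunit pairs and because the last pair had the highest RPKM, a value per coding length. RPS27A lies on chromosome XI at 158613-159212 on the plus strand and RPS27B on chromosome VIII at 147871-148669 on the minus strand (R64 annotation, RefSeq), each with an intron. Their coding sequences of 249 bases are printed from start to stop, and the 39 capitals in each are the bases that differ from the other copy.
RPS27A: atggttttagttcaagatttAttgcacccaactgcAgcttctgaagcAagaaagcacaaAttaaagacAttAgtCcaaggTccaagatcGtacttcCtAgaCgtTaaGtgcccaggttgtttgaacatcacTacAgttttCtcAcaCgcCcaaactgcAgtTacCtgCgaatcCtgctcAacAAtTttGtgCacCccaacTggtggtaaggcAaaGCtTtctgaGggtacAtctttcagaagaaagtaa
RPS27B: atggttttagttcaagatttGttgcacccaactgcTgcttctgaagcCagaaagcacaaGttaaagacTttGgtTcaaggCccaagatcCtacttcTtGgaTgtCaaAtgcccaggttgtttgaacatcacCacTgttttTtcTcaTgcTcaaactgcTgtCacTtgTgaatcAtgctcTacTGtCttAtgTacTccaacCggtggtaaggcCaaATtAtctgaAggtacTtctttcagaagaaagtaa
The 2 proteins of 82 residues differ at 1 position. RPS29A lies on chromosome XII at 898651-898821 on the plus strand and RPS29B on chromosome IV at 340628-340798 on the minus strand, both without an intron. Of their 171 coding bases, 14 differ and are in capitals, and the proteins of 56 residues differ at 5 positions.
RPS29A: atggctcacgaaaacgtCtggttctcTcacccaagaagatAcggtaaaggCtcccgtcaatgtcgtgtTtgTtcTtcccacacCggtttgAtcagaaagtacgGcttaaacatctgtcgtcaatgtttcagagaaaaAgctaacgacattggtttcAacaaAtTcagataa
RPS29B: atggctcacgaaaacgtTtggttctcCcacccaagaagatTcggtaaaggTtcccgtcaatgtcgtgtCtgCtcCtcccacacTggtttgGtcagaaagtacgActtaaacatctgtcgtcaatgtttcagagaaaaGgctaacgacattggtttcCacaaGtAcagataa
RPL41A and RPL41B lie on chromosome IV at 130407-130484 and at 221724-221801, both on the minus strand. They encode the same peptide of 25 residues, the smallest ribosomal protein of yeast, and differ at 1 of 78 coding bases.
RPL41A: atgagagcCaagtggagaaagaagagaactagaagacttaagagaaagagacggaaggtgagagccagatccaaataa
RPL41B: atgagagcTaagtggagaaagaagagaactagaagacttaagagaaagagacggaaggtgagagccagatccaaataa
None of the stretches of 100 bases across these genes, flanks included, occurred elsewhere in the genome, so a read of that length can be placed in each copy.

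Taken as a group, the ribosomal protein genes differed little between the libraries. They took 14.9% of all counts in cdc55Δ (4477284 counts) and 14.5% in WT (4810559 counts). The 60S genes took 8.42% in cdc55Δ and 8.24% in WT, and the 40S genes took 6.44% in cdc55Δ and 6.24% in WT. The median log2 fold change of the 137 genes was 0.04, and the middle 50% of them lay between -0.02 and 0.12. Over the 5705 features that averaged 50 or more normalized counts, the median was 0.00 and the middle 50% lay between -0.14 and 0.16. The SD of the log2 fold change was 0.14 over the ribosomal protein genes and 0.42 over all these features. All 137 genes passed this count minimum, since the lowest counts were 1098 in cdc55Δ and 1027 in WT, both of RPL15B.

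None of the 137 genes differed by 1.5-fold in either direction, whereas 5.19% of all features reached this fold upwards in cdc55Δ and 2.96% downwards. Of 43 other mRNA features with at least 1000 RPKM in both libraries, none reached it either. At a lower limit of 0.32 on the log2 scale, 8 genes (5.84%) were higher, against 11.9% of all features, and none was lower, against 8.57%. The interval lay above 0 for 78 genes (56.9%, against 31.5% of all features) and below 0 for 32 genes (23.4%, against 28.4%). With a median of 28385 counts per gene in cdc55Δ and 30353 in WT, small differences clear the counting error. On the TMM scale 2874 of the 5705 features were higher and 2831 lower in cdc55Δ. Of the 137 genes, 89 were higher and 48 lower. The split was 75 to 62 after scaling by library size alone and 68 to 69 after upper-quartile scaling. These scalings lower all log2 values by a constant, 0.03 with library size and 0.04 with the upper quartile, so they move the split without moving the genes relative to other features. After upper-quartile scaling the median was -0.00022 for these genes and -0.04 for all features tested.

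**Figure D1:**
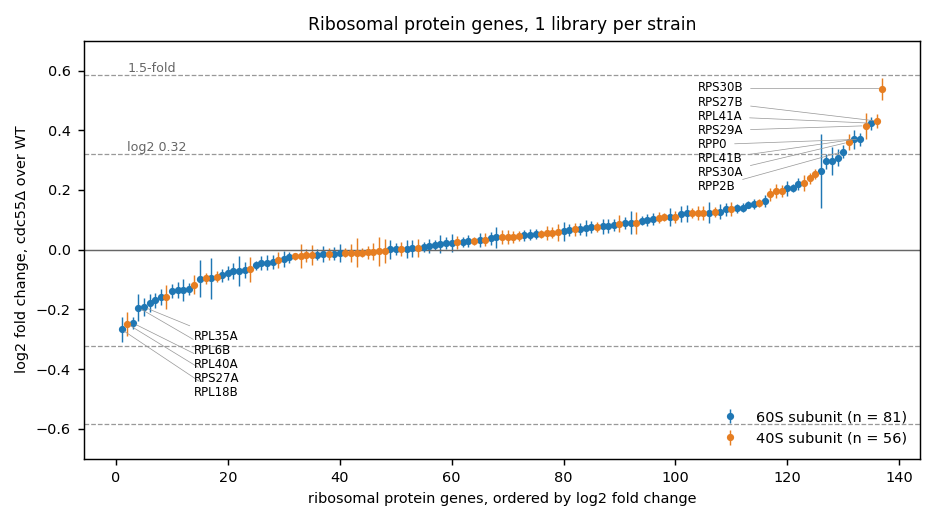
Log2 fold change (cdc55Δ over WT, TMM scale) of the 137 ribosomal protein genes in rising order, coloured by subunit, with 1 library per strain; bars are 95% counting intervals and dashed lines mark log2 values of 0.32 and of 1.5-fold on either side. All points lie within the 1.5-fold lines, from -0.27 for RPL18B to 0.54 for RPS30B, and the 8 genes above 0.32 and the 5 lowest are named.

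The 8 genes above a log2 fold change of 0.32 encode some of the smallest ribosomal proteins and parts of the stalk. RPS30B, which with RPS30A encodes a small protein of the 40S subunit, had 13622 counts in cdc55Δ and 10533 in WT, the highest log2 fold change of all members (0.54, 0.50 to 0.58). RPS30A had 24449 counts in cdc55Δ and 21406 in WT (0.36, 0.33 to 0.39). Both copies were thus higher in cdc55Δ, and the 2 encode identical proteins. RPS27B had 33010 counts in cdc55Δ and 27519 in WT (0.43, 0.41 to 0.45). RPS29A, which encodes a zinc-binding protein of the 40S head, had 9623 counts in cdc55Δ and 8111 in WT (0.42, 0.37 to 0.46). Their partners RPS27A and RPS29B did not share this change, as described below with the paralog shares.

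On the large subunit, RPL41A had 36173 counts in cdc55Δ and 30306 in WT (0.42, 0.40 to 0.45). RPL41B had 16984 counts in cdc55Δ and 14773 in WT (0.37, 0.34 to 0.40). RPL41A and RPL41B were therefore higher in cdc55Δ by a similar factor. RPP0, which encodes the stalk protein that anchors the acidic P1 and P2 proteins, had 34945 counts in cdc55Δ and 30392 in WT (0.37, 0.35 to 0.39). RPP2B had 40865 counts in cdc55Δ and 36566 in WT (0.33, 0.31 to 0.35).

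The other stalk genes lay on the opposite side. RPP2A had 16975 counts in cdc55Δ and 21600 in WT (log2 fold change -0.18, -0.21 to -0.15). RPP1A had 31401 counts in cdc55Δ and 37444 in WT (-0.09, -0.11 to -0.06), and RPP1B had 20053 in cdc55Δ and 25151 in WT (-0.16, -0.19 to -0.13). The 5 stalk genes thus held 2 of these 8 genes, together with 3 genes that were lower in cdc55Δ. P1 and P2 form the acidic tails of the stalk, to which translation factors bind.

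At the lower end, the 5 lowest log2 fold changes were those of RPL18B, RPS27A, RPL40A, RPL6B and RPL35A. RPL18B had 7576 counts in cdc55Δ and 10249 in WT (-0.27, -0.31 to -0.22). RPS27A had 8679 counts in cdc55Δ and 11589 in WT (-0.25, -0.29 to -0.21). RPL40A, which encodes ubiquitin fused to a 60S protein, had 39028 counts in cdc55Δ and 52011 in WT (-0.25, -0.26 to -0.23). All 3 belong to pairs, and only for RPL40 was the partner lower by a like amount: RPL40B had 23262 counts in cdc55Δ and 29407 in WT (-0.17, -0.19 to -0.14). RPL6B had 6924 counts in cdc55Δ and 8902 in WT (-0.19, -0.24 to -0.15). RPL35A, whose protein sits near the exit of the peptide tunnel, had 16467 counts in cdc55Δ and 21148 in WT (-0.19, -0.22 to -0.16). RPS31, the other ubiquitin fusion gene of the ribosome, had 109004 counts in cdc55Δ and 124357 in WT, and its log2 fold change was -0.02 (-0.03 to -0.01).

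RPL3, RPL5, RPL10 and RPS3, which have no second copy, lay above the upper quartile of the group, 0.12. RPL3, the longest of these genes with 1164 coding bases and a part of the peptidyl transferase region, had 133434 counts in cdc55Δ and 135070 in WT (0.15, 0.14 to 0.16). RPL5, which binds the 5S rRNA, had 78374 counts in cdc55Δ and 76324 in WT (0.21, 0.19 to 0.22). Both are below the limit of 0.32, and RPP0 was the 1 gene of the 19 without a second copy to pass it. RPL10, needed late in 60S maturation, had 77925 counts in cdc55Δ and 79421 in WT (0.14, 0.13 to 0.16). RPS3, at the mRNA entry site of the 40S subunit, had 78022 counts in cdc55Δ and 78699 in WT (0.16, 0.14 to 0.17). The 19 genes without a partner, RPS31 among them, had a median of 0.11, and the 118 paired genes had a median of 0.04. Of the 19, 14 were higher and 5 lower in cdc55Δ on the TMM scale, with RPS13 the lowest at -0.10.

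Subunit and introns separated the genes little. The median log2 fold change was 0.03 for the 81 genes of the 60S subunit and 0.04 for the 56 of the 40S subunit; after upper-quartile scaling both were within 0.01 of 0. The 89 genes with an intron had a median of 0.04 and the 48 without one a median of 0.05. Coding length gave a wider split. The 19 genes of at most 300 coding bases had a median of 0.20 and included 6 of the 8 genes above 0.32, whereas the 118 longer genes had a median of 0.03. The short genes also spread more, with an SD of 0.22 against 0.11 for the longer genes. They ran from -0.25 (RPS27A) to 0.54 (RPS30B), and RPS29B, RPL38 and RPS21B lay within 0.02 of 0. Over all 137 genes, log2 fold change and log2 length had Pearson's r of -0.25 and Spearman's rho of -0.05, which is a description across genes of the same libraries. Among the 118 genes over 300 bases both coefficients were positive, at 0.15, so the longer genes showed no fall with length. The cut at 300 bases was not planned beforehand. The 197 other mRNA features of at most 300 bases that passed the count minimum had a median of 0.04, or -0.01 after upper-quartile scaling, and an SD of 0.49. Of these 197, 44 were past 0.32 upwards and 30 downwards in cdc55Δ. Every listed length of these genes is a multiple of 3 and holds no UTR.

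**Figure D2:**
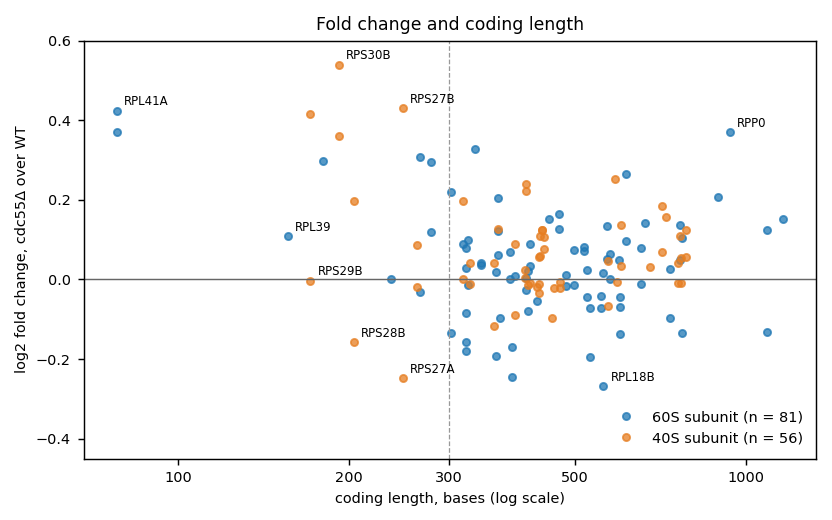
Log2 fold change (cdc55Δ over WT) of each of the 137 ribosomal protein genes against its coding length in bases on a log axis, coloured by subunit; the dashed line marks 300 bases. The 19 genes to the left of it range from -0.25 (RPS27A) to 0.54 (RPS30B), while RPP0 stands highest among the longer genes at 0.37.

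The levels were high and close to each other once summed over the copies of a protein. The median RPKM of the 137 genes was 2231 in cdc55Δ and 2209 in WT, against a median over all mRNA features of 32.4 in cdc55Δ and 32.5 in WT. In cdc55Δ 121, and in WT 123, of the 137 genes were among the 200 features of highest RPKM. Genes without a partner had a median of 3883 RPKM in cdc55Δ and 3673 in WT, and paired genes had a median of 2046 in cdc55Δ and 2014 in WT. Summed over both copies, the pairs had a median of 4204 RPKM in cdc55Δ and 4064 in WT. The summed level of a pair was therefore close to the level of a gene with no partner.

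Over the 78 proteins, counted by summing copies, the median was 4077 RPKM in cdc55Δ and 4010 in WT, and in each library 59 of 78 lay within 1.5-fold of it. RPL6 had the lowest sum, 786 RPKM in cdc55Δ and 883 in WT. RPL41 had the highest RPKM sum, 22616 RPKM in cdc55Δ and 17390 in WT. Of single genes, RPL41A had 15390 RPKM in cdc55Δ and 11691 in WT, and RPS31 had 7881 in cdc55Δ and 8152 in WT. These genes were followed by RPL41B, with 7226 RPKM in cdc55Δ and 5699 in WT, and by RPS20 and RPL38, both between 5071 and 5478 RPKM in either library. RPL41A and RPL41B are only 78 bases long without UTRs, shorter than a read of 100 bases, so that RPKM per coding length is hard to compare with that of longer genes.

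At the other end were minor copies of pairs. RPL15B had 59.2 RPKM in cdc55Δ and 50.2 in WT, against 3943 in cdc55Δ and 3755 in WT for RPL15A. RPL7B had 178 RPKM in cdc55Δ and 194 in WT, and its partner RPL7A had 2230 in cdc55Δ and 2232 in WT. RPL22B had 284 RPKM in cdc55Δ and 310 in WT, and RPL22A had 1323 in cdc55Δ and 1292 in WT. The 3 minor copies were far below their partners in both libraries. Over the 137 genes, log2 RPKM in the 2 libraries had Pearson's r of 0.99, a description across genes.

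Within the 59 pairs, the A copy gave the larger part of the counts in both libraries in 35 pairs and the B copy in 20, and in 4 pairs the larger copy differed between the libraries. The median A share was 55.1% in cdc55Δ and 55.2% in WT, and the A shares of the 59 pairs in the 2 libraries had Pearson's r of 0.99. The larger copy held a median of 64.3% of the counts of its pair. It held over 75% in 10 pairs and under 55% in 11 pairs. Among the pairs in which A was the larger copy, the most unequal were RPL15, with an A share of 98.5% in cdc55Δ and 98.7% in WT, and RPL7, with 92.6% in cdc55Δ and 92.0% in WT. RPL18 followed with 87.1% in cdc55Δ and 84.7% in WT, then RPS7 with 86.2% in cdc55Δ and 85.3% in WT, and RPS14 with 83.8% in cdc55Δ and 83.9% in WT.

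Among the pairs in which B was the larger copy, the most unequal was RPS9, whose protein binds early in 40S assembly and whose A share was 10.02% in cdc55Δ and 11.8% in WT. RPL36 had an A share of 21.2% in cdc55Δ and 25.6% in WT. RPS27 had 20.8% in cdc55Δ and 29.6% in WT, and was also the pair that moved most. RPL16 had 30.7% in cdc55Δ and 32.5% in WT, and RPL26 had 32.1% in cdc55Δ and 33.1% in WT. All 5 pairs kept B as the larger copy in both libraries.

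**Figure D3:**
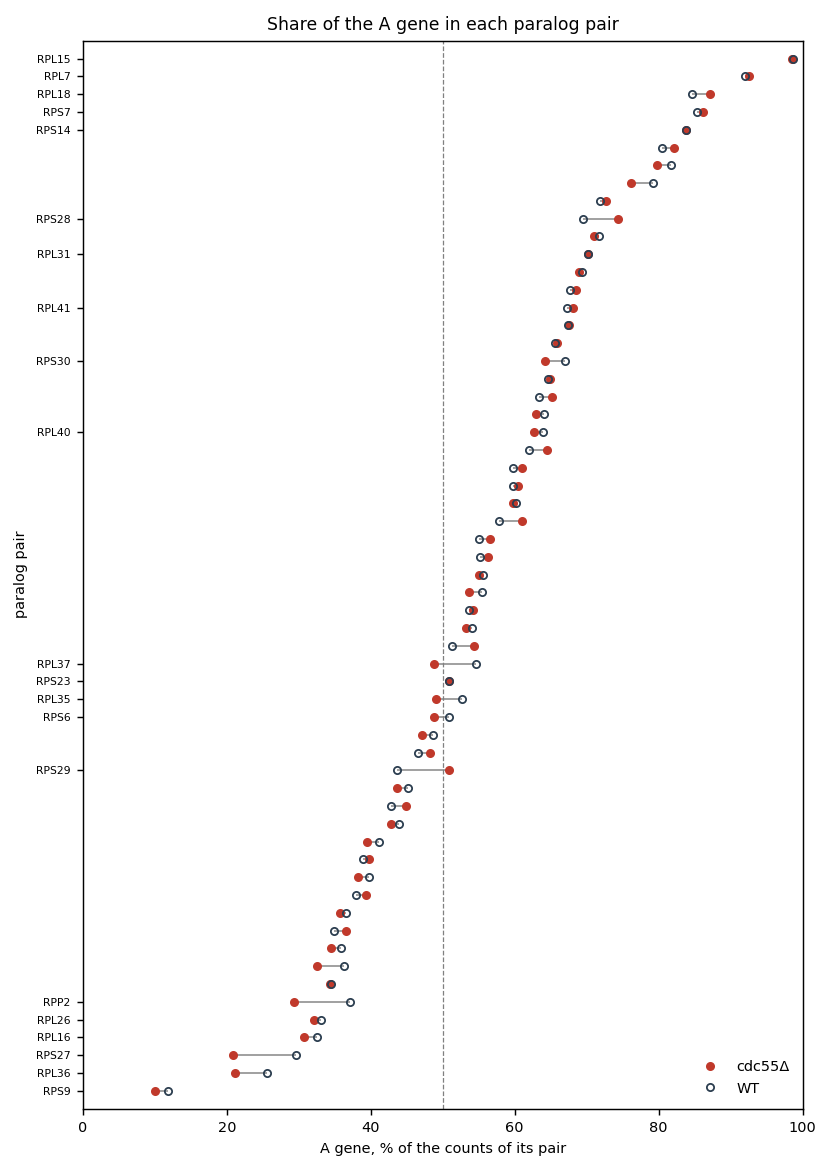
Share of the A copy in the counts of each of the 59 paralog pairs (percent), ordered by the mean of the libraries. Filled red points are cdc55Δ and open dark points are WT, and the dashed line marks 50%. The pairs whose A shares are given in the text are named, as are RPL40, RPL41 and RPS30. The shares run from 10.02% in cdc55Δ and 11.8% in WT for RPS9 to 98.5% in cdc55Δ and 98.7% in WT for RPL15, and the longest lines are those of RPS27, RPP2, RPS29 and RPL37.

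Most shares moved little between the strains, and 4 pairs moved by 5 percentage points or more. The median absolute difference of the A share was 1.42 percentage points, and it was under 1 point in 22 pairs. In RPS27 the A share was 8.81 points lower in cdc55Δ (-9.41 to -8.22, Newcombe interval), with RPS27A lower and RPS27B higher there, and the sum of the pair had a log2 fold change of 0.26. In RPP2 the A share was 29.3% in cdc55Δ and 37.1% in WT, a difference of -7.79 points (-8.33 to -7.25). Its 2 proteins share 61.8% of their residues, so that here the copies encode clearly different stalk proteins. RPL37, a zinc-binding protein of the 60S subunit, had an A share of 48.8% in cdc55Δ and 54.6% in WT (-5.84 points, -6.52 to -5.16). RPL37A had 20064 counts in cdc55Δ and 23030 in WT, and RPL37B had 21045 in cdc55Δ and 19113 in WT.

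The A share was higher in cdc55Δ for RPS29 and RPS28. RPS29 had 50.9% in cdc55Δ and 43.7% in WT (7.22 points, 6.21 to 8.23), with RPS29B at 9271 counts in cdc55Δ and 10445 in WT (log2 fold change -0.00, -0.04 to 0.04). RPS28 had 74.4% in cdc55Δ and 69.4% in WT (4.96 points, 4.32 to 5.60). RPS28A had 27434 counts in cdc55Δ and 26902 in WT, whereas RPS28B, whose product binds its own mRNA, had 9440 in cdc55Δ and 11838 in WT. The copies of RPS28 therefore lay on opposite sides of 0, at log2 fold changes of 0.20 for RPS28A and -0.16 for RPS28B. In RPL37 and RPS29, as in RPL35 and RPS6, the larger copy differed between the libraries. RPL35 had an A share of 49.0% in cdc55Δ and 52.7% in WT, and RPS6 had 48.9% in cdc55Δ and 50.9% in WT, but 43.9% and 40.4% of the stretches of 100 bases in these 2 pairs occur more than once in the genome.

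The pairs that moved least were RPS23, RPS14 and RPL31. RPS23A had 29448 counts in cdc55Δ and 30372 in WT, and RPS23B had 28459 in cdc55Δ and 29362 in WT. This gave an A share of 50.9% in cdc55Δ and 50.8% in WT, with an interval of the difference from -0.56 to 0.58 points. RPS23 acts in decoding in the 40S subunit, and its copies encode identical proteins. The RPS14 share differed by -0.04 points (-0.53 to 0.45) and the RPL31 share by -0.05 points (-0.66 to 0.56).

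Taking both copies of each pair on the TMM scale, 29 pairs had copies on opposite sides of 0, 23 had both higher and 7 both lower in cdc55Δ; after upper-quartile scaling these counts were 27, 15 and 17. The log2 fold changes of A and B had Pearson's r of 0.19 over the 59 pairs. The interval of the share difference lay above 0 in 22 pairs, below 0 in 27 and held 0 in 10. The largest and the smallest log2 fold change of a summed pair were 0.42 for RPS30 and -0.22 for RPL40. Proteins were identical in 21 pairs, whose median absolute share difference was 1.42 points, against 1.32 in the other 38. None of the identical pairs moved by 5 points or more, against 4 of the other 38, and these counts are too small to tell the groups apart. The 8 pairs of at most 300 coding bases had a median absolute difference of 4.01 points, and the 51 longer pairs one of 1.21 points, and 3 of the 4 pairs past 5 points were short.

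Reads from near-identical copies can be given to the wrong copy. Of the 137 genes, 32 had a stretch of 100 bases that occurs elsewhere, and 22, in 11 pairs, had at least 10% of such stretches. How the authors' count treated such reads is not given in the sources used here. None of the 4 pairs past 5 points was among these 11 pairs. With only 4 such pairs among 59, this count cannot show whether reads were given to the wrong copy. The median log2 fold change was 0.03 for the 22 genes and 0.04 for the other 115. No exon of the 137 genes overlapped another annotated gene.

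The promoters were searched for ACACCCNNA, a short form of the Rap1 site, on both strands. From 250 bases before to 50 after the start codon, 4 of the 137 genes (2.92%) held it, against 1.93% of 5974 promoters of the genome. In a wider window that began 600 bases before the start and was chosen after the first had been counted, 29 of the 137 genes (21.2%) held it, against 5.02% of 5972 promoters, at a median distance of 341 bases before the start. A run of 8 A (AAAAAAAA) stood in 54.7% of the wide windows of these genes and in 48.4% of all. Of the 8 genes with a log2 fold change above 0.32, only RPL41B held a match in the wide window. The other 7, RPL41A among them, held none. The matches before RPS23A and RPS23B, the pair that moved least, and before RPL41B are shown. Each match is on its own line in capitals with 15 bases on either side, read along the gene's strand (R64).
RPS23A, 370 bases before the start, chromosome VII 726589-726627: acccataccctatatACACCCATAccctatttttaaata
RPS23A, 387 bases before the start, chromosome VII 726572-726610: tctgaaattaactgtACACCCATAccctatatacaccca
RPS23B, 310 bases before the start, chromosome XVI 794640-794678: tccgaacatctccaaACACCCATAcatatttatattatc
RPL41B, 338 bases before the start, chromosome IV 222116-222154: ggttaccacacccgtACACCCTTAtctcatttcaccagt
RPL41B, 346 bases before the start, chromosome IV 222124-222162: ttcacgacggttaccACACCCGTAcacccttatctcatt
RPS23A and RPL41B thus hold 2 matches each, and the lines of each gene overlap. RPL13A and RPS16B are divergent neighbours and share a match, at chromosome IV 308130-308168, which stands 279 and 364 bases before their starts. The 29 genes with a match had a median of 0.03 on the log2 scale and the 108 without one a median of 0.05, so the match did not separate the genes by their difference. A match of these letters describes the sequence and does not show whether Rap1 binds there.

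Genes that act on ribosomal proteins or beside them were set against the group. Among the 34 translation factors the median was 0.06 on the log2 scale. Of them, 0 were past 1.5-fold, against 5.19% of all features upwards and 2.96% downwards. With 34 genes this count cannot be told apart from those shares. HYP2, the translation factor eIF5A of aerobic cells, had 19152 counts in cdc55Δ and 18062 in WT (0.25), and ANB1, its counterpart of cells without oxygen, had 2937 in cdc55Δ and 3646 in WT (-0.14). The 129 ribosome biogenesis factors had a median of -0.04, with 44 higher and 85 lower in cdc55Δ. Of all 5705 features tested, 2874 were higher and 2831 lower. UTP30 had 905 counts in cdc55Δ and 1276 in WT (-0.33), and NOP10, of the box H/ACA particles, had 5104 in cdc55Δ and 4943 in WT (0.21). The 8 RNA polymerase I genes had a median of -0.04, from -0.11 for RPA12, with 1527 counts in cdc55Δ and 1846 in WT, to 0.01 for RPA49, with 5606 in cdc55Δ and 6262 in WT.

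The 9 dedicated chaperones, which hold single ribosomal proteins before assembly, had a median of -0.11. None was past 0.32 in either direction, against 11.9% of all features upwards and 8.57% downwards. With 9 genes this count cannot be told apart from those shares. BCP1, the chaperone of Rpl23, had 2945 counts in cdc55Δ and 3861 in WT (-0.22). RRB1, the chaperone of Rpl3, had 11115 counts in cdc55Δ and 11731 in WT (0.09). The 75 mitochondrial ribosomal proteins that passed the count minimum had a median of -0.09. Of them, 54 were lower in cdc55Δ, against 2831 of all 5705 features tested. MRPL28 was past 1.5-fold by its estimate, with 303 counts in cdc55Δ and 522 in WT (-0.62, -0.83 to -0.41). Its interval also holds values short of 1.5-fold. MRPL36 had the highest value of that list, with 1318 counts in cdc55Δ and 1292 in WT (0.20). The 12 regulators of ribosomal protein gene transcription had a median of 0.01, or -0.03 after upper-quartile scaling. FHL1 had 2692 counts in cdc55Δ and 3408 in WT (-0.17, -0.25 to -0.10), and CRF1, a corepressor of these genes, was past 1.5-fold with 140 counts in cdc55Δ and 100 in WT (0.65, 0.27 to 1.04). Another feature of the table also carries the symbol CRF1 but is annotated as a putative aminophospholipid translocase regulator, so the one with the product Crf1p was taken. With upper-quartile scaling the median was 0.02 for translation factors and -0.08 for both biogenesis factors and RNA polymerase I genes. It was -0.15 for the chaperones, -0.14 for the mitochondrial ribosomal proteins and -0.04 for all features tested. These values are differences of mRNA levels, and no difference between lists was tested.

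**Figure D4:**
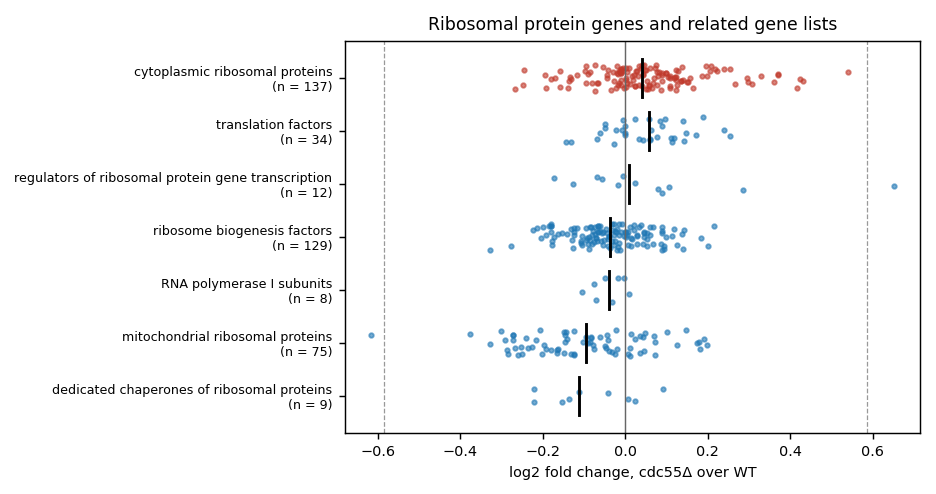
Log2 fold change (cdc55Δ over WT) of the 137 ribosomal protein genes (red, top row) and of the genes of 6 related lists (blue), with 1 point per gene, black bars at the medians and dashed lines at 1.5-fold. The medians lie between -0.11 (dedicated chaperones) and 0.06 (translation factors), with the ribosomal protein genes at 0.04.

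Among 43 other mRNA features with at least 1000 RPKM in both libraries, the median log2 fold change was 0.02, with 2 past 0.32 upwards and 3 downwards in cdc55Δ. None of these 43 features was past 1.5-fold in either direction. Their SD was 0.19, against 0.14 for the ribosomal protein genes and 0.42 for all features tested. The middle 95% of the ribosomal protein genes lay between -0.19 and 0.40, and that of these 43 features between -0.38 and 0.33.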

How the data were processed

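The authors removed rRNA, made directional libraries, mapped paired reads of 100 bases with HISAT2 to S288C, and the deposited counts per feature are whole numbers. The submitters' processing notes also name cutadapt and featureCounts. The strand setting and the treatment of reads with several sites are not given in the sources used here. The deposited RPKM values are these counts divided by listed length and library sum. TPM columns were not used. The columns hold 1 library per strain (30133454 counts in cdc55Δ, 33233285 in WT), so the quasi-likelihood test of edgeR lacks residual degrees of freedom and could not be fitted, and no p-value is given.

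TMM factors came from edgeR 4.0.16 under R 4.3.3. The prior count was 0.5, and 5705 features averaged 50 or more normalized counts. For fold changes and A shares the 95% intervals are Clopper-Pearson, and for share differences Newcombe (SciPy 1.17.1, Python 3.11.15). The intervals of fold changes were tested on simulated counts that held counting error only. Those of A shares and share differences were not tested in this way. PCR copies are not independent molecules. Features were matched to RefSeq R64 by accession: 6098 of 6106 with one matched, all with the listed length, as did all 137 members. For CRF1 and RRS1, which 2 features each share as a symbol, the product name decided. Protein identities come from the translated coding sequences.

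Members and lists were chosen with earlier results of these data known. The genes named were those of the 5 highest and 5 lowest log2 fold changes, the 5 highest and 3 lowest mean RPKM, the 5 highest and 5 lowest A shares, the 5 pairs that moved most and 3 least, the stalk genes, RPL3, RPL5, RPL10, RPS3 and RPS31, and both ends of each list. Others were named after their values were seen, and 1 item is not reported here. Alternatives were other scalings (DESeq2 1.42.0), prior counts, count minimums and thresholds.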

Additional observations from a re-analysis of the deposited data

How the results depend on the processing

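The median log2 fold change of the ribosomal protein genes was 0.04 with TMM. It was 0.014 with library size only, 0.043 with TMM without these genes and 0.038 with TMM over mRNA features only, and it changed sign with upper-quartile scaling (-0.00022), where every log2 fold change was 0.04 lower. With that scaling the named genes RPL31A (-0.00392), RPL31B (-0.00046) and RPL7A (-0.015) also changed sign, the last also with library size only (-0.0010). The values of 26 of the 49 named genes left their counting intervals with library size only, and those of 37 with upper-quartile scaling, beside the sign changes. Prior counts of 0 or 5, other count minimums and leaving out genes with shared stretches gave 0.04. No setting put a gene past 1.5-fold, and a log2 threshold of 0.32 gave 8 higher and a threshold of 2-fold gave 0. The median A share with pairs of few shared stretches was 54.7% in cdc55Δ and 54.8% in WT. Dividing by length or by the number of unique stretches moved it by less than its counting interval. A threshold of 2 percentage points gave 16 pairs and one of 10 gave 0, against 4 at 5 points. With mRNA features as denominator the genes took 18.2% of the counts in cdc55Δ and 17.9% in WT, and without SCR1, rRNA and tRNA 15.8% in cdc55Δ and 15.6% in WT. No paired analysis was possible because each strain has 1 library, and for the same reason no replicate could be left out.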
